A study of Mus musculus with 6 samples.

Results

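The 10 genes described here are the D cyclins, the kinases they bind, the inhibitors of those kinases and the retinoblastoma gene Rb1, taken from 41053 gene names in a count table of mouse splenic naive B cells. The D cyclin genes are Ccnd2, Ccnd3 and Ccnd1, the kinase genes Cdk4 and Cdk6, and the inhibitor genes Cdkn1a, Cdkn1b, Cdkn2c and Cdkn2d. They were chosen by gene name, as the G1 entry machinery around cyclin D2. Cyclin D2 itself was selected on the same contrast described here, where it was called higher in knockout. Knockout against wild type is therefore given for the 10 genes as a description and supports nothing further. All 10 were among the 13604 genes that passed the filter on low counts.

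RNA was sequenced from B cells of 3 libraries labelled TET2 knockout (KO) and 3 labelled TET2 wild type (WT), numbered 2, 3 and 4 in each genotype. TET2 is a dioxygenase that converts 5-methylcytosine of DNA to oxidized forms, and the comparison asks which transcripts differ when it is lost. All mice were of the C57BL/6 strain, and the labels name no treatment of the cells. The labels used here do not say which part of Tet2 was deleted, whether the deletion was confined to some cells, how old the mice were, how naive B cells were purified, or whether each library came from its own mouse. The p-values below are therefore set against differences among libraries that may be technical replicates.

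D cyclins are the sensors that link signals from outside the cell to the cell cycle. They bind Cdk4 or Cdk6, and the active complexes phosphorylate the retinoblastoma protein, which then releases E2F transcription factors that switch on genes of DNA synthesis. Inhibitors of the INK4 family (p18 from Cdkn2c, p19 from Cdkn2d) bind the kinases themselves, while those of the Cip/Kip family (p21 from Cdkn1a, p27 from Cdkn1b) bind cyclin-kinase complexes and restrain Cdk2. Naive B cells rest outside the cycle until antigen or other signals arrive, and in mouse B cells cyclin D2 is known as the D cyclin induced through the B cell receptor.

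The D cyclins share a short motif near their start, called LxCxE, through which they bind the retinoblastoma protein. It is shown because it ties the cyclins to Rb1, the last gene of the set. The coding sequences begin in exon 1 of Ccnd2 (chr6:127150714-127150773, minus strand), exon 3 of Ccnd3 (chr17:47593655-47593714, plus strand) and exon 1 of Ccnd1 (chr7:144939634-144939693, minus strand) of the principal transcript in GENCODE vM21 on build GRCm38. The first 60 coding bases of each follow, 5′ to 3′, with the codons of the motif in capitals.
Ccnd2: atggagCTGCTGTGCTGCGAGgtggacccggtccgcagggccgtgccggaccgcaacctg
Ccnd3: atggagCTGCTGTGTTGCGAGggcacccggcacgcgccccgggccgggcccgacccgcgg
Ccnd1: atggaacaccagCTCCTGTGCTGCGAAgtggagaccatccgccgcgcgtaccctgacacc
The motif spans codons 3 to 7 in Ccnd2 and Ccnd3 and codons 5 to 9 in Ccnd1. The whole coding sequences are of similar length, with 289 codons in Ccnd2, 292 in Ccnd3 and 295 in Ccnd1.

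Values are given as CPM, each gene's count relative to a library total adjusted by the TMM method. Library totals lay between 35101788 and 45401781 counts, so that 3 counts correspond to 0.0679 to 0.0857 CPM, and the common biological coefficient of variation was 12.4%. Sex-linked transcripts accompany every difference between genotypes below, while each library number occurs in both genotypes. Principal component 1 (38.6% of the variance) separated the genotypes, and principal component 2 (31.5%) separated the libraries numbered 4 from the others, so differences are also given for libraries 2 and 3 and for libraries 4 apart. Kdm5d, a Y-linked gene, had 23.3, 34.2 and 34.9 CPM in KO and at most 0.0571 CPM in WT, while Xist had 802 to 887 CPM in KO and 1440 to 1540 CPM in WT. Every KO library thus held a Y-linked transcript and Xist together, while WT libraries held Xist with almost no Kdm5d. Whether KO libraries mixed cells of both sexes was not tested. Genotype and sex-linked transcripts thus differed together and cannot be told apart. Tet2 transcripts had 59.4, 64.8 and 50.0 CPM in KO and 74.7, 83.3 and 56.8 CPM in WT, and the groups overlapped (log2 change −0.30, SE 0.14, edgeR adjusted p = 0.408). The counts cover all Tet2 exons, so this level does not check the genotype labels.

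Defining B cell markers were abundant in every library, with a summed level of 13200 to 15200 CPM in KO and 12900 to 13700 CPM in WT over 8 of 9 listed genes. Among B cell subsets, the summed markers overlapped between genotypes for marginal zone B cells (471 to 589 CPM in KO, 470 to 567 CPM in WT), germinal centre B cells (147 to 170 CPM in KO, 163 to 187 CPM in WT) and plasma cells (367 to 433 CPM in KO, 402 to 460 CPM in WT). Within the marginal zone list, Plxnd1, a plexin receptor, fell to 6.70 ± 1.52 CPM in KO, against 13.9 ± 1.52 CPM in WT (SD, n = 3 each), and was the only called gene of the 10 marker lists. Over all tested genes, edgeR called 0.404%. The other marginal zone genes went both ways. Mzb1 (log2 change 0.34) and Cd9 (0.31) had a higher mean in KO, and Cd1d1 (−0.17) and Dtx1 (−0.12) a lower one. B-1 cell markers, 9 of 9 genes, summed to 124 to 153 CPM in KO and 110 to 127 CPM in WT and overlapped. None of the 8 tested was called, and 3 had an unadjusted p under 0.05 in edgeR, all with a higher mean in KO, beside 13.4% of all tested genes in either direction. Of these, Plscr1, an interferon-inducible scramblase, had 12.2, 7.70 and 9.88 CPM in KO and 4.89, 5.68 and 5.34 CPM in WT (log2 change 0.91), while Spn, the surface protein CD43, had a log2 change of 0.47 and Cd9, a tetraspanin also on the marginal zone list, 0.31. The surface marker Cd5 had 1.68 ± 0.407 CPM in KO and 1.73 ± 0.416 CPM in WT (SD, n = 3 each). Over the 8 tested B-1 markers, 5 log2 changes were positive and 3 negative. The remaining marker, Ctla4, did not pass the filter on low counts and was lower in KO without overlap. It had 0.159, 0.0722 and 0.101 CPM in KO and 0.272, 0.227 and 0.257 CPM in WT, and its value in KO library 3 was at the level of 3 counts.

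Cells of other lineages left few transcripts. T cell markers (7 of 7 genes) summed to 0.733 to 1.18 CPM in KO and 0.498 to 0.705 CPM in WT, without overlap. Of these genes only Cd3d passed the filter on low counts, with 0.425 ± 0.187 CPM in KO and 0.214 ± 0.0505 CPM in WT (SD, n = 3 each). The other T cell genes overlapped between genotypes. NK cell markers (4 of 4 genes) gave 0.430 to 0.840 CPM in KO and 0.249 to 0.571 CPM in WT. Myeloid markers (7 of 8 genes) gave 20.1 to 29.4 CPM in KO and 22.2 to 25.4 CPM in WT. Dendritic cell markers (4 of 4) gave 4.53 to 5.81 CPM in KO and 3.92 to 4.96 CPM in WT, and erythroid markers (5 of 5) 8.83 to 15.2 CPM in KO and 7.13 to 19.5 CPM in WT. Within these lists Itgax (log2 change 1.03), Klrb1c (1.03) and Emr1 (0.45) were higher in KO without overlap, and Lyz2 (−0.59) lower without overlap. None of these was called by edgeR. No marker found in the table was at 0 in all 6 libraries.

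Cyclin D2 (Ccnd2, chr6:127125779-127151048, minus strand) had 116, 94.6 and 85.0 CPM in KO libraries 2, 3 and 4, against 46.7, 58.3 and 59.8 CPM in WT libraries 2, 3 and 4. Every KO library lay above every WT library, and the lowest KO library and the highest WT library were both numbered 4 (85.0 CPM in KO, 59.8 CPM in WT). The group levels were 98.7 ± 16.1 CPM in KO and 54.9 ± 7.19 CPM in WT (SD, n = 3 each), 1.80-fold higher in KO with a log2 change of 0.85 (SE 0.13). Between the libraries numbered 2 and 3 the log2 difference was 1.01, and between the libraries numbered 4 it was 0.51. On the contrast that selected the gene, its adjusted p from edgeR over all tested genes was 0.0409, just inside the threshold of 0.05. The nearest of the other 9 genes was Cdk4, outside it at 0.199. For Ccnd2 the edgeR adjusted p was 0.0840 with a replicate block, and 0.0544 with a filter of at least 1 CPM in 3 libraries. By size of change, Ccnd2 ranked 327 among 13604 genes. In bulk RNA, more cells with the transcript and more transcript per cell cannot be told apart. The T cell marker sum was also higher in KO, at 0.733 to 1.18 CPM, against 0.498 to 0.705 CPM in WT. These sums are small beside the Ccnd2 levels. Of the 7 T cell genes only Cd3d passed the filter on low counts, and the others overlapped between genotypes. With library number in the fit, as a replicate block or as a term for the libraries numbered 4, the log2 change was 0.84. The part of sex-linked transcripts, T cells and cell subsets in the difference was not tested.

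**Figure D1:**
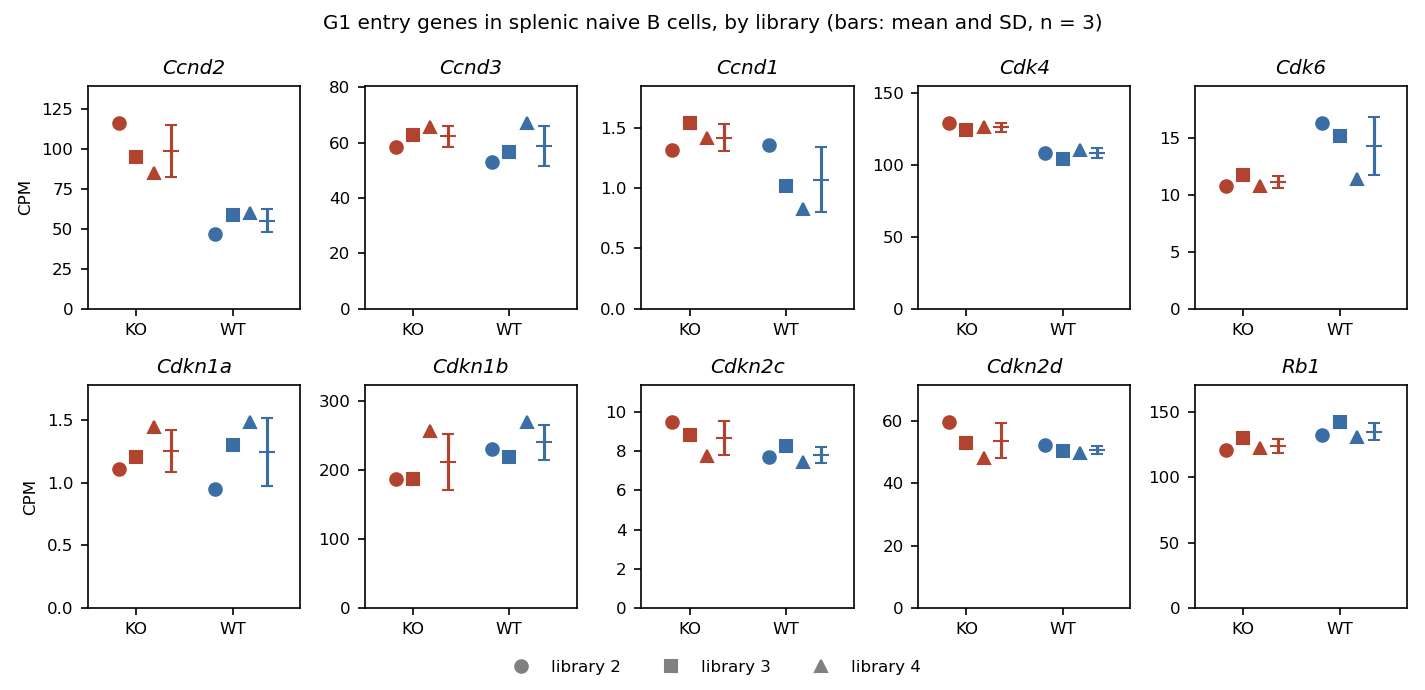
CPM (linear axis from 0) of each of the 10 genes in every library, with KO left and WT right in each panel, symbols for library numbers 2, 3 and 4, and bars for mean and SD (n = 3 each). The genotypes do not overlap for Ccnd2, with 85.0 to 116 CPM in KO and 46.7 to 59.8 CPM in WT, for Cdk4 (KO above) or for Rb1 (KO below), while the other 7 genes overlap.

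Cyclin D3 (Ccnd3, chr17:47505051-47599691, plus strand), the second abundant D cyclin, had 58.3, 62.9 and 65.7 CPM in KO and 53.2, 56.5 and 67.1 CPM in WT. The ranges overlapped, and the highest library of each genotype was the one numbered 4. Its log2 change was 0.08 (SE 0.10), with 0.14 in libraries 2 and 3 and −0.03 in libraries 4. Cyclin D1 (Ccnd1, chr7:144929931-144939869, minus strand), the D cyclin best known from epithelial and other non-lymphoid cells, was scarce. It had 1.32, 1.54 and 1.42 CPM in KO and 1.36, 1.02 and 0.828 CPM in WT, from 56 to 64 counts in KO and 29 to 60 counts in WT. The groups overlapped through WT library 2, and the log2 change was 0.40 (SE 0.24).

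Scaled by the summed length of all exons, 5701 bases for Ccnd2, 8775 for Ccnd3 and 3835 for Ccnd1, cyclin D2 made up 74.5%, 68.7% and 65.5% of the D cyclin level in KO libraries 2, 3 and 4 and 56.1%, 60.4% and 57.2% in WT libraries 2, 3 and 4. All KO shares were above all WT shares, by 11.7 percentage points between the means (69.6 ± 4.57% in KO and 57.9 ± 2.25% in WT, SD, n = 3 each). The longest principal transcript of Ccnd3 in GENCODE vM21 has only 2113 bases, against 6330 bases for Ccnd2. Per kb of that transcript, a scale chosen after seeing the data, the cyclin D2 share was 34.2 ± 4.98% in KO and 23.6 ± 1.64% in WT (SD, n = 3 each), and cyclin D3 was the more abundant D cyclin in all 6 libraries. Reads were still counted over all exons, 8775 bases for Ccnd3 and 5701 bases for Ccnd2. Dividing by the transcript length can thus raise cyclin D3 and lower cyclin D2 on this scale. Which of these cyclins is more abundant turns on the length used. The difference in share, 10.7 percentage points on this scale and 12.7 on counts without length, did not. The share repeats the Ccnd2 contrast and is no separate evidence of it.

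**Figure D2:**
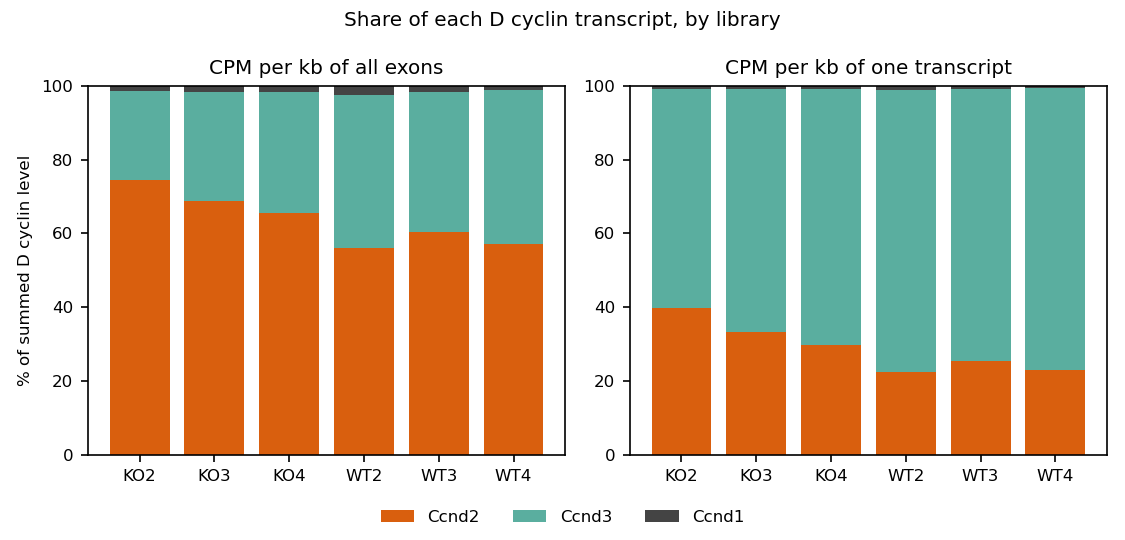
Share of the summed D cyclin level (% of CPM per kb) taken by Ccnd2, Ccnd3 and Ccnd1 in each library, KO libraries left of WT libraries, scaled by all exons in the left panel and by a single transcript in the right panel. The Ccnd2 share is higher in each KO library than in each WT library in both panels, while Ccnd3 exceeds Ccnd2 only in the right panel.

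The kinase Cdk4 (chr10:127063534-127067920, plus strand) had 129, 124 and 126 CPM in KO, against 108, 104 and 110 CPM in WT. Replicates were close and the genotypes did not overlap. The means were 126 ± 2.86 CPM in KO and 108 ± 3.40 CPM in WT (SD, n = 3 each), 1.17-fold higher in KO, a log2 change of 0.23 (SE 0.06) that was 0.26 in libraries 2 and 3 and 0.18 in libraries 4. Cdk6 (chr5:3343893-3523218, plus strand), which pairs with the same cyclins, had 10.8, 11.7 and 10.8 CPM in KO and 16.3, 15.2 and 11.4 CPM in WT. WT library 4 fell inside the KO range and the other WT libraries lay above it. The log2 change of Cdk6 was −0.37 (SE 0.14), with −0.48 in libraries 2 and 3 and −0.08 in libraries 4. The fitted changes of these kinase genes thus had opposite signs, and a difference between them was not tested.

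Among the inhibitors, Cdkn1b (p27, chr6:134920401-134925513, plus strand) was the most abundant, at 187, 187 and 257 CPM in KO and 231, 219 and 269 CPM in WT. Libraries numbered 4 were the highest of both genotypes and made the ranges overlap. The log2 change was −0.19 (SE 0.13), with −0.27 in libraries 2 and 3 and −0.06 in libraries 4. Cdkn1a (p21, chr17:29090979-29100722, plus strand), the inhibitor known as a target of p53, was near the low end, with 1.11, 1.2 and 1.44 CPM in KO and 0.951, 1.30 and 1.48 CPM in WT. Its log2 change of 0.01 (SE 0.25) rested on 49 to 57 counts in KO and 42 to 57 counts in WT and changed sign with scaling to library size only (−0.03).

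The INK4 gene Cdkn2c (p18, chr4:109660876-109667189, minus strand) had 9.47, 8.84 and 7.73 CPM in KO and 7.68, 8.25 and 7.45 CPM in WT. Cdkn2d (p19, chr9:21288463-21291209, minus strand) had 59.5, 53.0 and 48.2 CPM in KO and 52.2, 50.4 and 49.6 CPM in WT. In both genes the groups overlapped and KO library 4 was the lowest of its genotype. The log2 changes were 0.15 (SE 0.13) for Cdkn2c and 0.08 (SE 0.09) for Cdkn2d, and that of Cdkn2d was −0.01 without KO library 2. Rb1 (chr14:73183673-73325822, minus strand), the substrate of the cyclin D kinases, had 121, 130 and 122 CPM in KO, against 132, 142 and 131 CPM in WT. All KO libraries lay below all WT libraries by a small margin. The log2 change was −0.12 (SE 0.07), with −0.13 in libraries 2 and 3 and −0.10 in libraries 4.

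**Figure D3:**
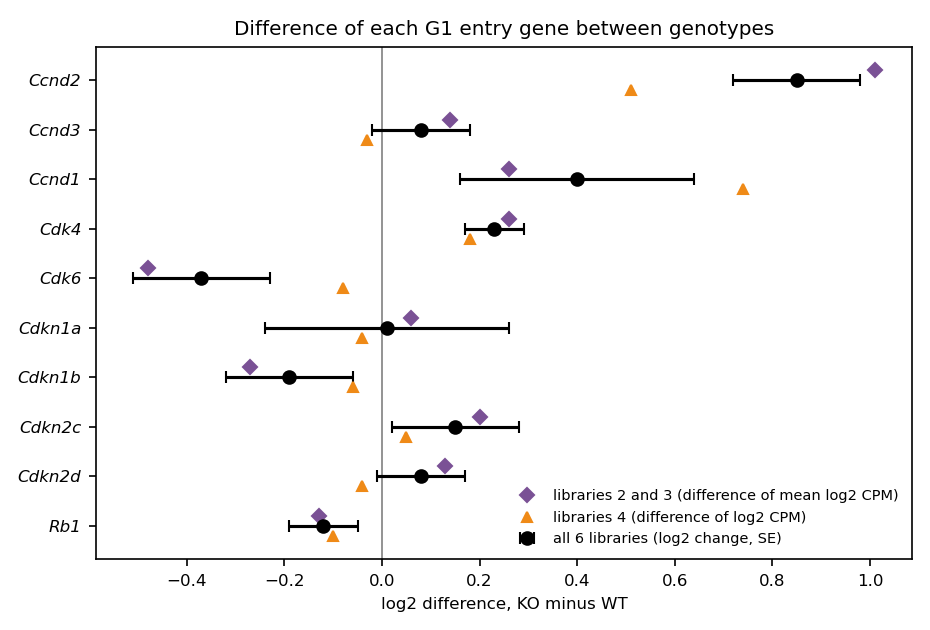
Log2 difference, KO minus WT, of each gene: circles with bars are the change and SE over all 6 libraries, diamonds are libraries 2 and 3 and triangles are libraries 4. Ccnd2 lies at 0.85 (1.01 in libraries 2 and 3, 0.51 in libraries 4), Cdk6 at −0.37 and the other 8 genes between −0.19 and 0.40.

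Over the 10 genes, 1 was called higher in KO (Ccnd2) and none lower at an adjusted p under 0.05 in edgeR, where 0.404% of all 13604 tested genes were called, 0.184% higher and 0.221% lower. DESeq2 also called 1 of the 10 (2.57% of all genes) and limma-voom 1 (0.353% of all genes). At an unadjusted p under 0.05 there were 3, Ccnd2, Cdk4 and Cdk6, against 13.4% of all genes, and groups did not overlap for 3, Ccnd2, Cdk4 and Rb1, against 18.5% of all genes. Since Ccnd2, around which the set was built, was chosen on this contrast, nothing is read from these shares. The log2 changes ran from −0.37 to 0.85 with a median of 0.08, and 7 of 10 were positive, beside a median of −0.01 and 48.8% positive over all tested genes. In libraries 2 and 3 the median was 0.14 with 7 positive, and in libraries 4 it was −0.04 with 4 positive.

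Levels of different genes were compared per kb of summed exon length. In KO the order was Cdkn1b (46.3 ± 8.91 CPM per kb), Cdkn2d (42.1 ± 4.43), Cdk4 (38.9 ± 0.880), Rb1 (20.6 ± 0.844), Ccnd2 (17.3 ± 2.82), Ccnd3 (7.10 ± 0.425), Cdkn2c (3.23 ± 0.327), Cdk6 (2.98 ± 0.145), Cdkn1a (0.563) and Ccnd1 (0.371). In KO the library range of Cdkn2d overlapped those of Cdkn1b and of Cdk4, which did not overlap each other. Rb1 and Ccnd2 also overlapped in KO, as did Cdkn2c and Cdk6. In WT the order was Cdkn1b (52.7 ± 5.67 CPM per kb), Cdkn2d (39.9 ± 1.05), Cdk4 (33.1 ± 1.05), Rb1 (22.4 ± 1.05), Ccnd2 (9.64 ± 1.26), Ccnd3 (6.71 ± 0.828), Cdk6 (3.84 ± 0.690), Cdkn2c (2.90 ± 0.154), Cdkn1a (0.560) and Ccnd1 (0.279), and among neighbours only Cdk6 and Cdkn2c overlapped. Both genotypes thus held more transcript of the inhibitors p27 and p19 than of p18 and p21, and more of Cdk4 than of Cdk6. Per kb of a single principal transcript, Cdk4 led in KO, at 61.5 CPM per kb against 46.3 for Cdkn1b, while in WT they were close, at 52.4 for Cdk4 and 52.7 for Cdkn1b. For Cdk6 that transcript (11525 bases) is much longer than the exons counted by the authors (3735 bases), so its level on this scale, 0.965 CPM per kb in KO and 1.24 in WT, is an underestimate.

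Counting ignored strand, so reads of a gene and of an overlapping antisense gene cannot be told apart. Ccnd2, Cdkn1a, Cdkn1b, Cdkn2c and Cdkn2d shared no exon bases with another gene in the deposited annotation. The other 5 genes overlapped antisense genes in their exons: Ccnd3 with Bysl (361 bases), Ccnd1 with Oraov1 (818 bases), Cdk4 with Tspan31 (604 bases), Cdk6 with Gm17590 (60 bases), and Rb1 with Rcbtb2 (488 bases) and Lpar6 (408 bases). The values of these 5 genes are uncertain to that degree.

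Around Ccnd2, 4 other tested genes lay within 200 kb. Rad51ap1, a DNA repair factor (log2 change 0.12, SE 0.21), D6Wsu163e (0.12, SE 0.09) and 9630033F20Rik (0.07, SE 0.11) overlapped between genotypes. The fourth, 9330179D12Rik (chr6:127149389-127212411, plus strand), runs opposite to Ccnd2 and its span covers 1660 bases of the Ccnd2 locus, though their exons share no base. As counting ignored strand, unspliced Ccnd2 reads in those bases cannot be told apart from its own reads. 9330179D12Rik had 0.658, 0.698 and 0.708 CPM in KO, against 0.589, 0.409 and 0.286 CPM in WT, without overlap but not past the threshold (log2 change 0.66, SE 0.32, edgeR adjusted p = 0.408). None of these 4 neighbours passed the threshold in edgeR, and none had an unadjusted p under 0.05.

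The genes whose log2 CPM ran most like that of Ccnd2 over the 6 libraries were Eef1a1, a translation elongation factor (Pearson r = 0.999), Cmtm6, a membrane protein that stabilizes PD-L1 (0.997), Zcchc18 on the X chromosome (0.997), Gars, glycyl-tRNA synthetase (0.996), Eif5b, a translation initiation factor (0.995), and Gpi1, the glycolytic enzyme glucose-6-phosphate isomerase (0.994). Over 9523 genes compared, 204 (2.14%) had an r of 0.95 or more. These are descriptions over 6 libraries that share genotype and library number, without a p. Eef1a1 had 3460, 3160 and 3050 CPM in KO and 2300, 2510 and 2590 CPM in WT, the same order of libraries as Ccnd2 with a smaller log2 change of 0.39 (SE 0.09, edgeR adjusted p = 0.157). All of the 6 separated the genotypes, with log2 changes of 0.16 to 0.48, and none passed the threshold. They were chosen for running like Ccnd2, which was selected as higher in KO. Their separation and positive changes follow from that choice and are no separate evidence.

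The partners of the D cyclin pathway at the G1/S border (cyclin E, Cdk2, E2F and pocket proteins, the Cdk-activating kinase, and subunits of the MuvB complex) were a list of 28 genes, of which 26 were tested. The INK4 genes Cdkn2a and Cdkn2b did not pass the filter on low counts. None of the 26 was called by edgeR, DESeq2 or limma-voom. In edgeR 3 had an unadjusted p under 0.05, each with a higher mean in KO, and groups did not overlap for 6, where 13.4% and 18.5% of all tested genes did so. Cks1b, a small subunit that binds Cdk2 and helps destroy p27, had 3.29, 3.42 and 3.44 CPM in KO and 1.79, 1.86 and 2.60 CPM in WT (log2 change 0.70, SE 0.19, edgeR adjusted p = 0.202). E2f8, an E2F repressor, had 1.25, 1.56 and 0.783 CPM in KO and 0.498, 0.637 and 0.685 CPM in WT (0.99, SE 0.31, edgeR adjusted p = 0.253). The remaining 1 of the 3 was Tfdp1, the partner with which E2F proteins bind DNA, at 0.34 (SE 0.12, edgeR adjusted p = 0.278). Cdk2 itself had 65.6 ± 5.0 CPM in KO and 75.3 ± 6.76 CPM in WT (SD, n = 3 each, edgeR adjusted p = 0.390). The 26 log2 changes were positive for 15 and negative for 11, with a median of 0.04.

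A second list held 20 genes that turn D cyclins over or act upstream of them, among them Ambra1 (the substrate receptor for D cyclin degradation), the kinases Gsk3a and Gsk3b, and the transcription factors Myc, Foxo1 and Bcl6. All 20 were tested and none was called by edgeR, DESeq2 or limma-voom. In edgeR 1 had an unadjusted p under 0.05 (13.4% of all tested genes did), Cdc37, the co-chaperone that hands kinases such as Cdk4 to Hsp90, with 190, 195 and 205 CPM in KO and 155, 153 and 187 CPM in WT (log2 change 0.25, SE 0.09, edgeR adjusted p = 0.292). Bcl6, a repressor known to act on Ccnd2 in B cells, had 151, 160 and 140 CPM in KO and 155, 180 and 175 CPM in WT, and the groups overlapped (−0.17, edgeR adjusted p = 0.404). Myc, an activator of Ccnd2, had 106 ± 32.6 CPM in KO and 117 ± 9.89 CPM in WT (SD, n = 3 each). The libraries numbered 2 and 3 differed by −0.46 on the log2 scale, the libraries numbered 4 by 0.38. Over the list, 8 log2 changes were positive and 12 negative with a median of −0.03, and groups did not overlap for 4, beside 18.5% over all tested genes.

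Genes downstream of E2F that serve DNA replication and division were a list of 21, all tested. None was called by edgeR, while 10 had an unadjusted p under 0.05 in edgeR, 9 of them with a higher mean in KO, beside 13.4% of all tested genes in either direction. DESeq2, which called 2.57% of all genes, called Top2a higher (adjusted p = 0.0274) and Tk1 lower (adjusted p = 0.000268), and limma-voom called none. Tk1, thymidine kinase of the salvage pathway, had the most negative log2 change of the list, with 23.2, 25.9 and 18.3 CPM in KO and 41.4, 47.1 and 31.7 CPM in WT, without overlap (log2 change −0.83, SE 0.17, edgeR adjusted p = 0.105). The difference of Tk1 was −0.85 in libraries 2 and 3 and −0.79 in libraries 4.

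The replication helicase subunit Mcm6 had 89.7, 85.4 and 80.1 CPM in KO, against 69.6, 68.8 and 72.8 CPM in WT (log2 change 0.27, edgeR adjusted p = 0.186). Topoisomerase gene Top2a had 22.5, 22.5 and 15.5 CPM in KO, against 14.3, 13.3 and 13.7 CPM in WT (0.55, SE 0.15, edgeR adjusted p = 0.186). The proliferation marker Mki67 had 19.5, 21.4 and 10.4 CPM in KO and 13.4, 11.4 and 9.56 CPM in WT, with KO library 4 inside the WT range. Over the list 17 log2 changes were positive and 4 negative, 81.0% positive beside 48.8% over all tested genes, with a median of 0.21, and groups did not overlap for 9, beside 18.5% over all tested genes. In libraries 2 and 3 the median was 0.31 with 18 positive, and in libraries 4 it was 0.05 with 14 positive. The summed level of the list was 776 to 803 CPM in KO and 709 to 762 CPM in WT.

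**Figure D4:**
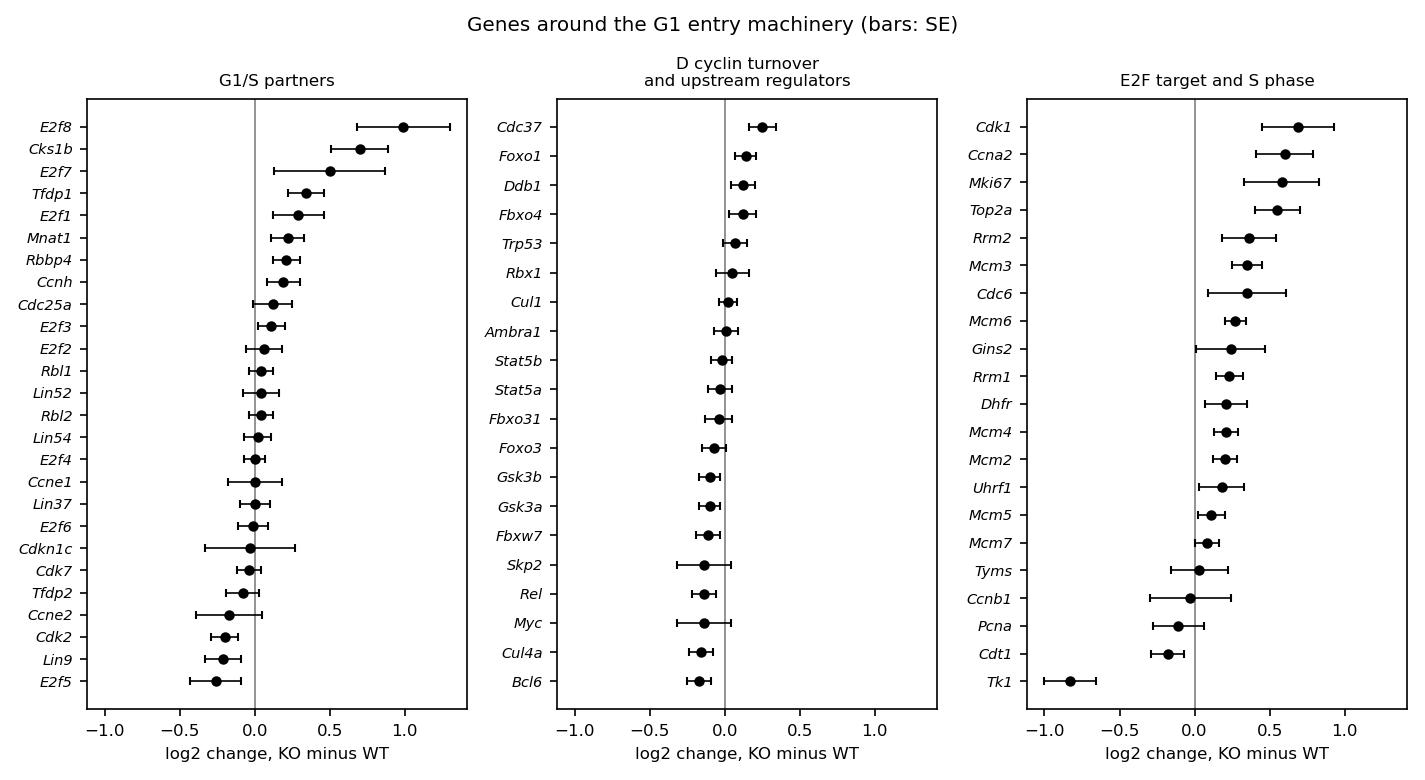
Log2 change, KO minus WT, with SE, of each tested gene in the lists of G1/S partners (26 genes, left), turnover and upstream regulators (20 genes, middle) and E2F target and S phase genes (21 genes, right). No gene of these lists passed the threshold in edgeR, 17 of 21 changes in the right panel are above 0, and Tk1 at −0.83 is the lowest of all.

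The call of Ccnd2 depended on which libraries entered the fit, and on the filter and the model. Over 16 other settings its log2 change stayed between 0.71 and 1.01, all positive, and 10 of them kept an adjusted p under 0.05. With all 6 libraries the call was lost with a filter of at least 1 CPM in 3 libraries (log2 change 0.84, edgeR adjusted p = 0.0544) and with the library number as a replicate block (0.84, 0.0840). It was also lost without KO library 2 (log2 change 0.71, edgeR adjusted p = 0.179), KO library 3 (0.88, 0.114), WT library 2 (0.74, 0.158) or WT library 3 (0.88, 0.139), and kept without KO library 4 (0.94, 0.0181) or WT library 4 (0.91, 0.0198). With libraries 2 and 3 alone (4 libraries), edgeR also called Cdk4 (0.26, adjusted p = 0.0040) higher and Cdk6 (−0.48, adjusted p = 0.00353) and Cdkn1b (−0.27, adjusted p = 0.00355) lower. The same libraries gave 1871 genes higher and 1436 lower over 13800 tested genes, and none of these values is a test of the set.

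**Figure D5:**
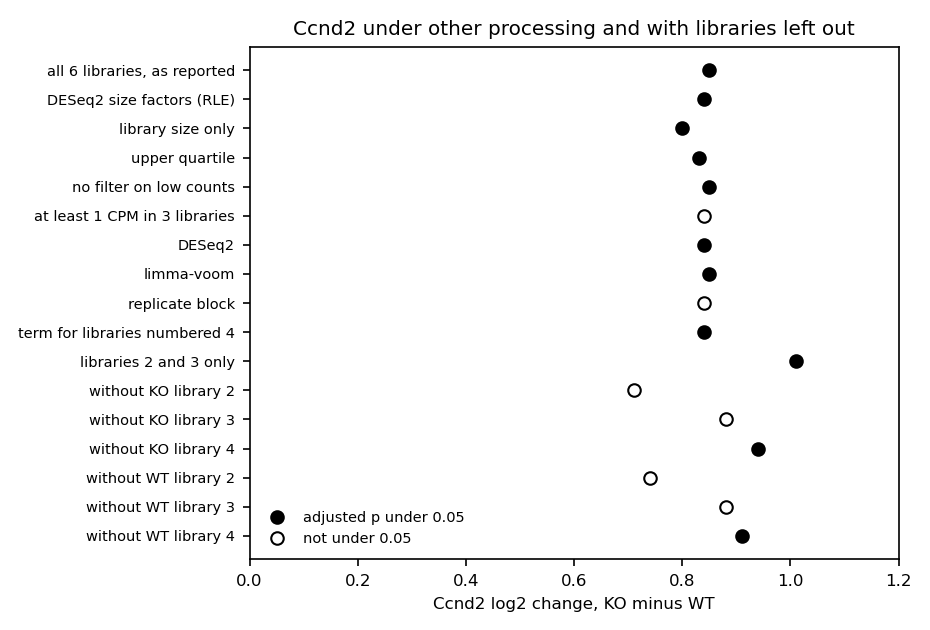
Log2 change of Ccnd2, KO minus WT, over all 6 libraries (top) and under 16 other settings. Filled circles have an adjusted p under 0.05 and open circles do not, and all values lie between 0.71 and 1.01.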

How the data were processed

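The authors' deposited table gives raw counts of fragments for each gene name, made with featureCounts 1.5.1 over exons without a strand option, per the file headers. STAR 2.3.0e and build GRCm38.p3 are named in the submitters' processing notes, and the kit was stranded, per the labels' protocols. Gene positions and exon lengths (in bases, a value of another kind than counts) are those deposited with the counts. A further 6 count columns belong to no sample used here and were left out.

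CPM used TMM-normalized library sizes. KO was compared with WT by edgeR's quasi-likelihood F test (edgeR 4.0.16, R 4.3.3, robust, genotype only, filterByExpr with a minimum count of 10), adjusted by Benjamini-Hochberg over 13604 genes with a threshold of 0.05. Per-library log2 values used a prior count of 2. DESeq2 1.42.0 and limma-voom (limma 3.58.1) were alternatives, and the test was checked on simulated data. Floors cover counting error only.

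The 10 genes and the lists were chosen with earlier results of these data known. Named genes were the 10, Tet2, the called genes of each list or else those with the 2 smallest p-values, tested genes within 200 kb of Ccnd2, those sharing exon bases, and the 6 most like Ccnd2 (mean log2 CPM at least 1). The genes Kdm5d, Xist, Tfdp1, Cdk2, Myc, Top2a, Mki67, Cd5, Plscr1, Spn, Cd9, Ctla4, Cd3d and Plxnd1 were named after their values were seen. So were Mzb1, Cd1d1, Dtx1, Itgax, Klrb1c, Emr1 and Lyz2. Coding sequences and transcript lengths came from GENCODE vM21 on GRCm38.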

Additional observations from a re-analysis of the deposited data

How the results depend on the processing

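Among the 10 genes, Ccnd2 was not called with at least 1 CPM in 3 libraries (0 called higher, Ccnd2 edgeR adjusted p = 0.0544) or with the replicate block (0 higher, 0.84, edgeR adjusted p = 0.0840). Same-numbered libraries correlated at 0.09 (2), 0.22 (3) and 0.39 (4) in their deviations, and KO library 2 correlated best with WT library 3 (0.24), so the numbers were not taken as pairs. The libraries numbered 4 did deviate together, and the labels do not say whether that number marks a batch. With the replicate block 50 genes were lower in all and 1 E2F target (Tk1) lower. No filter gave 160 higher and 102 lower of 23019 tested genes, and 1 E2F target in each direction. DESeq2 gave 197 higher and 152 lower, and likewise 1 E2F target each way. A term for the libraries numbered 4 gave 353 higher and 246 lower of 13604 tested genes. It gave 2 of the 10 higher (Cdk4 added), 1 G1/S partner higher, 1 turnover gene higher, and 4 E2F targets higher and 1 lower. Libraries 2 and 3 alone gave 1871 higher and 1436 lower of 13800 tested genes, and 2 of the 10 in each direction. They gave 4 G1/S partners higher and 3 lower, 3 turnover genes higher and 4 lower, and 11 E2F targets higher and 3 lower. Beside so many calls over all genes, nothing is read from these list counts. Leaving out 1 library gave 9 (without KO 2 or WT 3) to 630 (without WT 4) higher genes and 8 (without KO 2) to 270 (without WT 4) lower ones, 0 to 2 of the 10 higher and 0 to 1 lower, 0 to 1 G1/S partners higher, 0 to 1 turnover genes higher, 0 to 3 E2F targets higher and 0 to 1 lower. The fits without 1 library tested 13789 to 13906 genes. The causes were not tested. Of the 10 genes, only Cdkn1a (3 settings) and Cdkn2d (1 setting) changed sign under these 16 alternatives. The median log2 change of all genes moved at most to −0.05, with library size only. Depth limits Ccnd1 and Cdkn1a most.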
